A study of Mus musculus with 6 samples.

Results

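A set of 10 genes of glycolysis and pyruvate use was followed in mouse full-grown oocytes, which hold the maternal mRNA used until the embryo starts its own transcription. They were chosen by name and are Hk1, Pfkl, Pfkm, Pfkp, Pkm, Ldha, Ldhb, Mpc1, Mpc2 and Pdha1, 10 of the 55291 gene symbols counted in the table. RNA sequencing by a Smart-seq2 protocol had been carried out on wild-type (WT) oocytes and on oocytes in which Pan2, the catalytic subunit gene of the PAN2-PAN3 deadenylase that shortens poly(A) tails, was knocked out (KO). The labels name 6 samples, and the values below come from WT 1 and from KO 1 to KO 3. The labels give no strain, age, allele, deleted exons or driver of the deletion, and nothing says whether replicates came from separate females, so p-values measure only how these libraries vary, which may be technical variation. The series text mentions zygotes and 2-cell embryos, while the sample titles name oocytes, and the titles are used here. In such bulk libraries fewer cells and less RNA per cell cannot be told apart.

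A growing mouse oocyte takes up little glucose and runs glycolysis weakly. The surrounding cumulus cells break glucose down to pyruvate and hand it over, and the oocyte imports that pyruvate into mitochondria through the MPC1-MPC2 carrier and feeds it to pyruvate dehydrogenase. Lactate dehydrogenase, a tetramer of A and B subunits, interconverts pyruvate and lactate, and the B form is the one known to be abundant in mouse eggs.

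Total counts were 23485093 in WT 1 and 12038990, 23359636 and 26770521 in KO 1 to KO 3 in turn. A count was therefore worth 0.0374 to 0.0831 CPM (each count scaled to the library's depth), and a floor of 3 counts lay between 0.112 and 0.249 CPM. WT 2, with 3785574 counts, correlated with the other libraries at only 0.258 to 0.266 in log2 CPM, against 0.973 to 0.994 among the others, and was left out; WT 3 was not analysed here. Pan2 itself stood at 77.5 CPM in WT 1, and at 44.5, 11.9 and 34.0 CPM in the KO libraries, all lower, without passing the test (edgeR adjusted p = 0.301). It passed with no low-count filter (adjusted p = 0.0085) and when KO 1 was dropped (log2 fold change -1.74, adjusted p = 1.42e-14), and in none of the other settings run. The 12 oocyte markers examined were detected in all 4 libraries and took 2.08% of counts in WT 1 against 1.93 ± 0.208% in KO oocytes (SD, n = 3). With a single WT library, the spread in every test came from the 3 KO libraries, and the WT library is assumed to vary like them.

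Levels of the 10 genes spanned 5 orders of magnitude, and transcripts of the B-type lactate dehydrogenase gene were far above the rest. CPM here are scaled by TMM factors, and levels of different genes are compared per kilobase of deposited exon length. Ldhb averaged 3372 CPM per kb over the 4 libraries, a level above that of 99.96% of all genes tested. Pkm, the pyruvate kinase M gene, came next at 52.9 CPM per kb. Mpc1, Pdha1 and Mpc2 followed at 15.2, 14.1 and 10.7 CPM per kb, and their ranges over the 4 libraries overlapped from one to the next, so their order is not resolved beyond the spread. The phosphofructokinase genes lay lower, with Pfkm at 2.80, Pfkl at 1.03 and Pfkp at 0.903 CPM per kb, and the ranges of Pfkl and Pfkp overlapped. Ldha and Hk1 closed the order at 0.127 and 0.0239 CPM per kb, also with overlapping ranges. The order inside these groups depends on the length used: with the length of 1 principal transcript per gene, chosen after seeing the data, Mpc2 moved to the third place at 76.3 CPM per kb, ahead of Mpc1 at 33.0 and Pdha1 at 18.5, and Pfkp moved ahead of Pfkl.

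**Figure D1:**
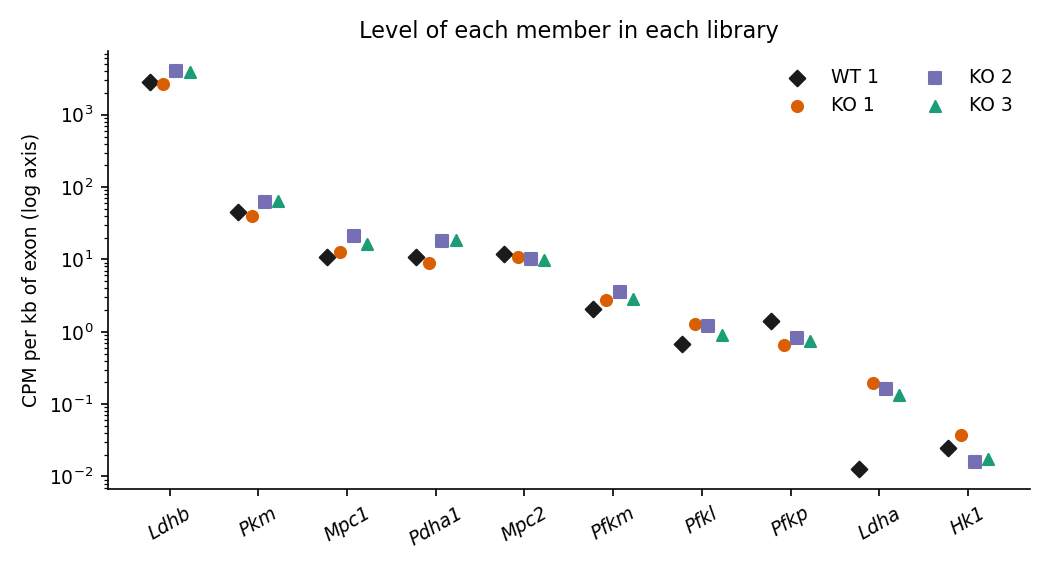
Level of each of the 10 genes in WT 1, KO 1, KO 2 and KO 3, as TMM-scaled CPM per kb of exon on a log axis, ordered by the mean of the 4 libraries; each symbol is 1 library. Ldhb lies between 2668 and 4062 CPM per kb, while Ldha and Hk1 stay below 0.2 CPM per kb.

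None of the 10 genes passed in the comparison of KO oocytes against WT 1. Of these, 9 could be tested, and 0 of them rose or fell at an edgeR adjusted p of 0.05, when 1.93% of all 17799 genes tested did. Of those genes 235 (1.32%) rose and 109 (0.612%) fell in KO oocytes. Hk1 had too few counts to enter the test. The 9 tested genes had a median log2 fold change of 0.47, against 0.02 over all genes tested, with 7 values above 0 and 2 below. Over all 17799 genes tested, 9129 values lay above 0. Ldha, with 1 count in WT 1, entered the test only through its KO counts, and is counted in these values and in those that follow. All KO libraries lay above WT 1 for 4 genes (Pfkl, Pfkm, Ldha and Mpc1) and below it for 2 (Pfkp and Mpc2), while over all genes tested 58.3% had the KO libraries on one side of WT 1, 29.1% above it and 29.2% below. At an unadjusted p under 0.05 there was 1 of the 9, Pfkp, against 13.3% of all genes. The summed level of the 10 genes, nearly all of it Ldhb, was 4826 CPM in WT 1 and 4556, 6905 and 6711 CPM in the KO libraries.

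**Figure D2:**
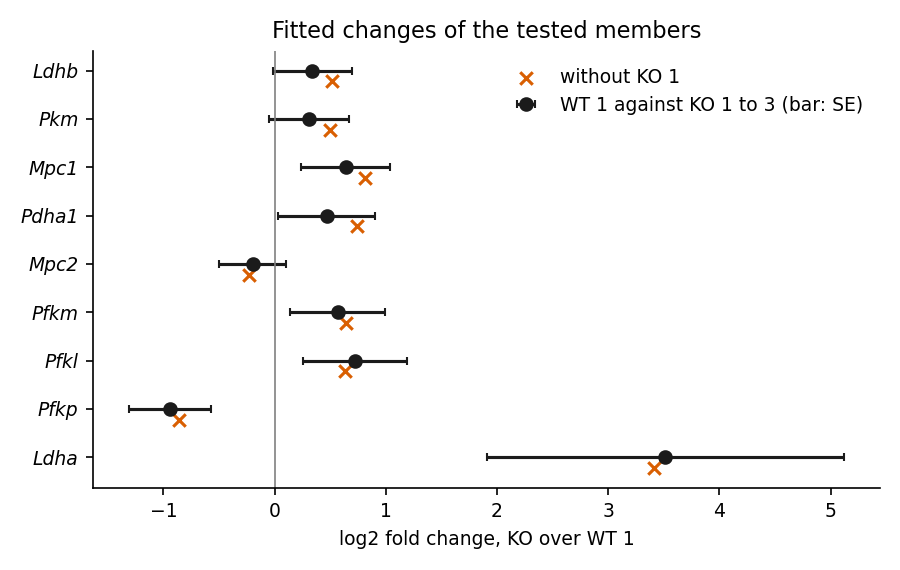
Fitted log2 fold change of KO over WT 1 for the 9 genes tested, with the SE of the fit as bars, and the value without KO 1 as crosses. Pfkp and Mpc2 lie below 0 and the other 7 above it, and the widest bar belongs to Ldha, which had 1 count in WT 1.

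Hexokinases phosphorylate glucose and so hold it in the cell. Hk1, the hexokinase 1 gene (ENSMUSG00000037012.18, mm10 chromosome 10, 62268855 to 62379908, minus strand), had 5 counts in WT 1 and 4, 3 and 4 counts in KO 1 to KO 3 in turn. The levels were 0.209 CPM in WT 1 and 0.325, 0.134 and 0.149 CPM in the KO libraries, all within a few counts of the floor, and WT 1 lay inside the KO range. The ratio of summed counts, KO over WT 1, each divided by the summed effective library size, was 0.857 with a 95% counting interval of 0.275 to 3.15, so neither a rise nor a fall of Hk1 was detectable at this depth. Here and below, such intervals reflect counting error alone, because PCR copies of a molecule are counted too.

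Phosphofructokinase commits fructose 6-phosphate to glycolysis, and its liver, muscle and platelet subunits are encoded by Pfkl, Pfkm and Pfkp. Pfkp (ENSMUSG00000021196.14, chromosome 13, 6579768 to 6648777, minus strand) was at 18.9 CPM in WT 1, and at 8.68, 10.9 and 9.90 CPM in KO 1 to KO 3 in turn. The KO libraries lay close together and all well below WT 1. Its log2 fold change was -0.94 with an SE of 0.37 (edgeR adjusted p = 0.301), the lowest of the 9 genes tested. Pfkp shares 748 bases of exon with Pitrm1, a mitochondrial peptidase gene on the plus strand, which had 2264 counts in WT 1 and 521, 1694 and 2068 counts in the KO libraries. These counts are not scaled by depth. As for Pfkp, all KO values lay below WT 1, also that of KO 3, the deepest library. The sources used here do not give the strand setting of the count, so reads of both genes in the shared bases cannot be told apart.

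Pfkm (ENSMUSG00000033065.14, chromosome 15, 98092589 to 98132451, plus strand) went the other way, at 6.89 CPM in WT 1 and 9.09, 11.9 and 9.60 CPM in the KO libraries, at a fitted log2 fold change of 0.57 with an SE of 0.42 (edgeR adjusted p = 0.621). Pfkl (ENSMUSG00000020277.10, chromosome 10, 77986947 to 78010083, minus strand) was at 4.59 CPM in WT 1 and 8.60, 8.13 and 6.09 CPM in the KO libraries, at a fitted log2 fold change of 0.72 with an SE of 0.46 (adjusted p = 0.554). For both genes every KO library lay above WT 1, and neither passed. Pfkm shares 341 bases with Gm26513 and 18 with Senp1.

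Ratios taken inside a library do not depend on the scaling between libraries, and for Pfkp they lay apart in WT 1 and the KO libraries. The ratio of Pfkp to Pfkm, in counts per kb, was 0.684 in WT 1 (95% counting interval 0.571 to 0.823) and 0.238, 0.229 and 0.257 in KO 1 to KO 3 in turn (0.241 ± 0.0144, SD, n = 3). The KO values stood within a narrow band, and the ratio in WT 1 was 2.84 times their mean. Pfkp to Pfkl was 2.05 in WT 1 (1.66 to 2.55) and 0.503, 0.668 and 0.810 in the KO libraries, again apart. Pfkm to Pfkl was 3.00 in WT 1 (2.34 to 3.85) and 2.11, 2.92 and 3.15 in the KO libraries, so WT 1 lay inside the KO range. As shares of the summed level per kb of the phosphofructokinase genes, Pfkp took 33.9% in WT 1 against 14.9 ± 1.25% in KO oocytes (SD, n = 3), Pfkm 49.6% and 61.9 ± 2.98%, and Pfkl 16.5% and 23.2 ± 3.95%. The sum itself was 4.16 CPM per kb in WT 1 and 4.92 ± 0.578 CPM per kb in KO oocytes. Which gene leads, and the shares, depend on the length used. With principal transcript lengths Pfkp to Pfkm was 1.91 in WT 1 and 0.672 ± 0.0403 in KO oocytes (SD, n = 3), so Pfkp was above Pfkm in WT 1. With 1 WT library an exact permutation test of a ratio could give no p below 0.25, so the ratios are values of these 4 libraries. Both ratios that lay apart hold the same Pfkp counts. How often ratios of other gene pairs lie apart was not tested, while 58.3% of all genes tested had the KO libraries on one side of WT 1.

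**Figure D3:**
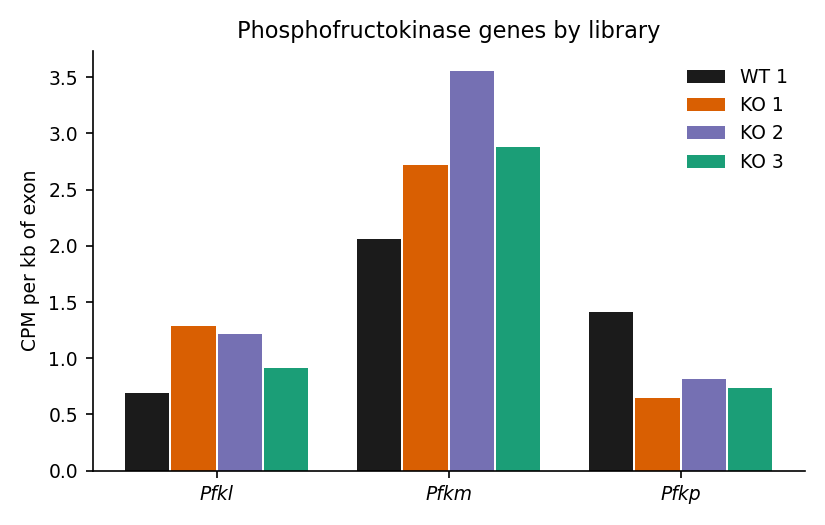
Level of Pfkl, Pfkm and Pfkp in CPM per kb of exon, 1 bar for each library, from 0. The WT 1 bar is the lowest for Pfkl and Pfkm and the highest for Pfkp, at 1.41 CPM per kb against 0.648 to 0.813 in the KO libraries.

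Pkm (ENSMUSG00000032294.17, chromosome 9, 59656368 to 59679375, plus strand) encodes the pyruvate kinase that makes pyruvate in the last step of glycolysis. It was at 225 CPM in WT 1, and at 201, 309 and 324 CPM in KO 1 to KO 3 in turn. KO 1 lay with WT 1, and KO 2 and KO 3 lay together above both. The log2 fold change was 0.31 with an SE of 0.36 (edgeR adjusted p = 0.766). Pkm shares 767 bases of exon with Gm49759, which had 0 counts in every library.

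Lactate dehydrogenase transcripts were mostly those of Ldhb. Ldhb (ENSMUSG00000030246.11, chromosome 6, 142490249 to 142507957, minus strand) was at 4421 CPM in WT 1, and at 4189, 6377 and 6186 CPM in KO 1 to KO 3 in turn. As with Pkm, KO 1 lay beside WT 1 and below KO 2 and KO 3, and WT 1 was inside the KO range. The log2 fold change was 0.34 with an SE of 0.35 (edgeR adjusted p = 0.741). Ldha (ENSMUSG00000063229.15, chromosome 7, 46841475 to 46855627, plus strand), the gene of the A subunit, had 1 count in WT 1 and 8, 12 and 12 counts in the KO libraries, which is 0.0418 CPM against 0.649, 0.536 and 0.448 CPM. All 4 values are low, and Ldha entered the test only through its KO counts. The ratio of summed counts, KO over WT 1, scaled by depth in the same way, was 12.5 with a 95% counting interval of 2.08 to 508, and the fitted log2 fold change of 3.52 (SE 1.61) did not pass (edgeR adjusted p = 0.382). Per kb, Ldhb exceeded Ldha 13605-fold in KO 1 (95% counting interval 6904 to 31514), 25088-fold in KO 2 (14362 to 48553) and 29081-fold in KO 3 (16648 to 56282), and 223206-fold in WT 1, where the single Ldha count leaves an interval from 40060 upward to 8816240. These intervals do not cover reads that map to several places, whose treatment is not given. Pseudogenes of Ldha were looked for only by a suffix in the gene symbol.

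The sequence upstream of these genes is shown because these paralogues differ so widely in level. Each promoter runs from 250 bases before to 50 bases after a RefSeq transcript start (GRCm38.p6), 5′ to 3′ on the gene's strand, and capitals mark ACGTG and GCGTG, the core letters bound by HIF and related factors, on either strand.
Ldhb promoter, chr6:142507908-142508207, minus strand: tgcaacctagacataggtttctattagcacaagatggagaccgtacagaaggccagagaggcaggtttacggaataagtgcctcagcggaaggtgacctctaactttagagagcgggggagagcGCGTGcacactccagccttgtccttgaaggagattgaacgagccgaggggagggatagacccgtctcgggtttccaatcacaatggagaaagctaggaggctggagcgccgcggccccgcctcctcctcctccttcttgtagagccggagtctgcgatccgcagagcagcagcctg
Ldha promoter, chr7:46846832-46847131, plus strand: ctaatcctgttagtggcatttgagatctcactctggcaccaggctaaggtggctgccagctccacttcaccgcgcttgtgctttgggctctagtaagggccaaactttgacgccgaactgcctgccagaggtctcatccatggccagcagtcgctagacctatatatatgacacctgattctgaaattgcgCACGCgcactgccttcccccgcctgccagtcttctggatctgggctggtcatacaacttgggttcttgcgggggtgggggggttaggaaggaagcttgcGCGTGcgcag
The Ldhb promoter held 1 match and 17 CG dinucleotides, and the Ldha promoter, the one of its entries nearest the principal transcript, held 2 matches and 13 CG dinucleotides. Of all 32851 promoters of this length 43.8% held a match, and the median number of CG dinucleotides was 7. A match describes these letters and is not a bound site.

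A processed pseudogene of Ldhb carried a difference between WT 1 and the KO libraries that Ldhb itself did not. Ldhb-ps (ENSMUSG00000045104.9, named Gm5514 in GENCODE, chromosome 19, 21937380 to 21938381, plus strand) was singled out after its values were seen. It stood at 217 CPM in WT 1, and at 11.5, 15.99 and 21.3 CPM in KO 1 to KO 3 in turn. The counts were 5193 in WT 1 and 142, 358 and 571 in the KO libraries. The counts assigned to it fell, at a fitted log2 fold change of -3.73 with an SE of 0.34 (edgeR adjusted p = 0.000716), and passed in all 12 settings without WT 2 (log2 fold change -3.97 to -3.53). Of the counts on Ldhb and Ldhb-ps together, the pseudogene took 4.68% in WT 1 (95% Clopper-Pearson interval 4.55 to 4.801) and 0.274%, 0.250% and 0.344% in the KO libraries. The summed level was 4638 CPM in WT 1 against 5600 ± 1216 CPM in KO oocytes (SD, n = 3), and with both counted as 1 gene the log2 fold change was 0.27 (adjusted p = 0.794). Ldhc, the gene of the C subunit known from testis, was named after its values were seen and is not in these sums. It stood at 65.3 CPM in WT 1, and at 29.7, 36.1 and 63.8 CPM in the KO libraries, all lower (edgeR adjusted p = 0.596).

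**Figure D4:**
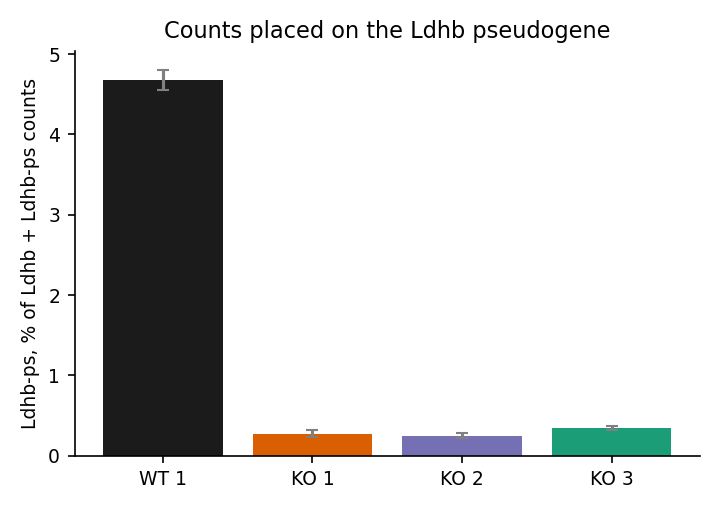
Counts assigned to Ldhb-ps as a percentage of those on Ldhb and Ldhb-ps together, 1 bar for each library, with 95% Clopper-Pearson intervals. WT 1 is at 4.68% and the KO libraries lie between 0.250% and 0.344%.

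The likeness of both sequences shows how reads can be split between them. The 1002 bases of the Ldhb coding sequence aligned to Ldhb-ps without gaps, with 20 differing bases (98.0% identity) and a longest identical run of 148 bases. The first 100 bases of both are given in mm10, 5′ to 3′ on the gene's strand, with the 3 differing bases in capitals.
Ldhb, chromosome 6: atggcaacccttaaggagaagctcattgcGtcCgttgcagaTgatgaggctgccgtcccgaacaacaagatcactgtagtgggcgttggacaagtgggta
Ldhb-ps, chromosome 19: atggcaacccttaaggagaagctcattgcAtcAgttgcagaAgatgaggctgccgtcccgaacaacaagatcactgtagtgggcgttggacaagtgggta
Reads that cover no differing base cannot be assigned by sequence, so the split of counts between Ldhb and Ldhb-ps is uncertain. The labels give no strain, and which bases the WT and KO oocytes carry at Ldhb-ps was not analysed here, so less pseudogene RNA and a different placement of reads cannot be told apart. Of the other suffix-named pseudogenes, those of Ldha had 0 counts in the 4 libraries, and Mpc1-ps was at 4.38 CPM in WT 1 against 4.25 ± 0.863 CPM in KO oocytes (SD, n = 3).

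The mitochondrial pyruvate carrier is an obligate pair of small inner-membrane proteins. Mpc1 (ENSMUSG00000023861.17, chromosome 17, 8282904 to 8297661, plus strand) was at 22.3 CPM in WT 1, and at 26.0, 44.5 and 33.7 CPM in KO 1 to KO 3 in turn. Every KO library lay above WT 1, with KO 1 nearest to it, and the log2 fold change of 0.64 (SE 0.40) did not pass (edgeR adjusted p = 0.539). Mpc2 (ENSMUSG00000026568.6, chromosome 1, 165460637 to 165481214, plus strand) was at 86.5 CPM in WT 1 and 79.8, 75.3 and 71.3 CPM in KO 1 to KO 3 in turn. Its fitted log2 fold change, -0.20 with an SE of 0.30 (adjusted p = 0.826), was the smallest in size of the 9. The KO values all lay below WT 1 but by little. Within a library, Mpc2 to Mpc1 in counts per kb was 1.10 in WT 1 (95% counting interval 0.997 to 1.21) and 0.871, 0.480 and 0.601 in the KO libraries (0.650 ± 0.200, SD, n = 3). The ratio was highest in WT 1, and KO 1 lay between it and the other KO libraries. Which carrier gene is higher depends on the length: with principal transcript lengths the ratio was 3.62 in WT 1 and 2.14 ± 0.660 in KO oocytes. Mpc1 shares 480 bases of exon with 4930506C21Rik, which had 2 counts in KO 2 and 0 in the others.

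Pdha1 (ENSMUSG00000031299.10, chromosome X, 160122209 to 160138413, minus strand) encodes the E1 alpha subunit of pyruvate dehydrogenase, which turns pyruvate into acetyl-CoA. It was at 40.9 CPM in WT 1, and at 33.3, 67.6 and 69.0 CPM in KO 1 to KO 3 in turn. KO 1 lay below WT 1, and KO 2 and KO 3 lay well above it. The log2 fold change was 0.47 with an SE of 0.44 (edgeR adjusted p = 0.702). Pdha1 shares 603 bases of exon with Map3k15, which had 175 counts in WT 1 and 32, 116 and 135 in the KO libraries.

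KO 1 did not always lie with the other KO libraries, among the members or among all genes tested. In log2 CPM, KO 1 lay nearer to WT 1 than to the mean of KO 2 and KO 3 for Pkm, Ldhb, Mpc1, Mpc2 and Pdha1, 5 of the 9 genes tested, and for 51.5% of all genes tested, so the members' share is near the background. Some shares of the libraries' counts also differed between KO 1 and the other KO libraries. The ribosomal RNA gene CT010467.1 took 2.47% of counts in WT 1, 1.49% in KO 1 and 0.554% and 0.565% in KO 2 and KO 3, and the mitochondrial chromosome 0.344%, 0.394%, 0.214% and 0.235%. KO 1 was also the shallowest of the 4 libraries. With counts thinned to the smallest library, or with mitochondrial and ribosomal RNA genes left out, 0 members passed in edgeR. In those fits in turn, the log2 fold change was 0.29 and 0.31 for Pkm and 0.47 and 0.48 for Pdha1. Whether depth or these shares bear on where KO 1 lay was not tested. Without KO 1, 5 of the 9 genes passed in edgeR: Pkm (log2 fold change 0.50, adjusted p = 0.0250), Ldhb (0.51, adjusted p = 0.0188), Mpc1 (0.81, adjusted p = 0.00418) and Pdha1 (0.74, adjusted p = 0.00284) were higher and Pfkp (-0.86, adjusted p = 0.0151) was lower in KO oocytes. In that fit only KO 2 and KO 3 gave the spread, and 28.1% of all genes passed.

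The pathway genes nearest in pattern to the most abundant members were Me1 and G6pdx. Nearness was measured as the Euclidean distance of centred log2(CPM + 1) over 4 libraries, among 64 members and pathway genes with a mean of at least 5 CPM. For Ldhb the distance was 0.0589 to Me1, the cytosolic malic enzyme gene, and 0.102 to G6pdx, the glucose-6-phosphate dehydrogenase gene, with a median distance of 0.385. For Pkm the distances were 0.0810 and 0.0907, with a median of 0.430. Me1 was at 376 CPM in WT 1 and 351, 515 and 523 CPM in the KO libraries, and G6pdx at 380 and 330, 546 and 528 CPM, so both had KO 1 with WT 1. With 4 libraries this is a description of these values only.

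The end of an mRNA bears on a deadenylase and on oligo(dT) capture, since the poly(A) signal places the tail and U-rich cytoplasmic polyadenylation elements govern tail length in oocytes. The last 100 bases of 1 principal transcript per gene (GENCODE M21) were searched on the transcript strand for the signals AATAAA and ATTAAA and for the elements TTTTAT and TTTTAAT. Of the 10 genes, 8 held a poly(A) signal, AATAAA in 6 and ATTAAA in Pfkp and Pdha1, while Hk1 and Pfkl held neither. Over 13470 genes tested, 64.5% held AATAAA and 21.02% ATTAAA. None of the 10 held either cytoplasmic element, which 18.5% of those genes held. Among those genes the median log2 fold change was 0.07 with an element and 0.02 without. The 30 bases that end with the signal are shown for the carrier genes, the abundant enzymes and the phosphofructokinase genes that differ in direction, in mm10 and 5′ to 3′, with the signal in capitals.
Ldhb, chr6:142490267-142490296, minus strand: gtttgcactaggagctcctgatcaAATAAA
Pkm, chr9:59679327-59679356, plus strand: tgctatagtgcccacctgaatgtcAATAAA
Mpc1, chr17:8297615-8297644, plus strand: aactcagatctgtaacttaatggcAATAAA
Mpc2, chr1:165481170-165481199, plus strand: ccttggtttctaccatttgtccatAATAAA
Pdha1, chrX:160122232-160122261, minus strand: tcatgtgctgtgaaaaggaaacgaATTAAA
Pfkm, chr15:98132400-98132429, plus strand: acagtgatgaagtgtaactacactAATAAA
Pfkp, chr13:6579813-6579842, minus strand: ctagtaactcttgtgatcatccgcATTAAA
Pfkp, the member with the lowest log2 fold change, carries the ATTAAA variant, as does Pdha1 with a value above 0. The match in Pfkp begins 51 bases from the end of the transcript, and those in the other genes 18 to 29 bases from it. Whether the Pfkp match acts as a signal was not tested. No match says only that these letters are not in the window searched.

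Among the other enzymes of glycolysis, 17 of 28 further genes could be tested, of which 1 rose and 0 fell. Over all genes tested, 1.32% rose and 0.612% fell. The median log2 fold change of the 17 was 0.27, and 13 of their values lay above 0, against 9129 of all 17799 genes tested. These 13 include genes with few counts in WT 1 that entered the test only through their KO counts, as Ldha did. The most abundant per kb were Bpgm, the bisphosphoglycerate mutase gene, at 2053 CPM in WT 1 against 2336 ± 372 CPM in KO oocytes (SD, n = 3), Tpi1 (triosephosphate isomerase) at 106 and 155 ± 28.4 CPM, and Aldoa (aldolase A) at 113 and 137 ± 26.4 CPM. None of these 3 passed, with edgeR adjusted p from 0.533 to 0.854.

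Of 18 glucose and monocarboxylate transport genes 14 were tested, and 0 passed in edgeR. At an unadjusted edgeR p under 0.05 there was 1, against 13.3% of all genes tested, and the median log2 fold change was 0.16. Bsg, the gene of the chaperone of monocarboxylate transporters, was at 137 CPM in WT 1 against 135 ± 29.3 CPM in KO oocytes (SD, n = 3), and Slc2a1, the GLUT1 gene, at 48.1 and 47.9 ± 8.63 CPM. For both the difference was much smaller than the spread among KO libraries. Slc16a13, a monocarboxylate transporter family gene, was at 38.9 and 26.5 ± 5.98 CPM (adjusted p = 0.555). Slc2a12, the GLUT12 gene, was at 6.26 CPM in WT 1 and 15.1, 27.4 and 28.9 CPM in the KO libraries (edgeR adjusted p = 0.0952). It passed with DESeq2 (adjusted p = 0.00314), with no low-count filter (0.00343) and when KO 1 was dropped (1.62e-11). Slc16a7, the MCT2 gene, was at 0.710 and 1.87 ± 0.472 CPM (adjusted p = 0.432).

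Around pyruvate dehydrogenase and the other branches of pyruvate use, 20 of 23 genes were tested and 0 passed in edgeR. At an unadjusted edgeR p under 0.05 there were 4, against 13.3% of all genes tested, and the median log2 fold change was 0.26. Pdhx, the E3-binding protein gene, was at 405 CPM in WT 1 against 379 ± 78.1 CPM in KO oocytes (SD, n = 3), and Dld, the E3 subunit gene, at 215 and 287 ± 89.0 CPM. Pdha2, the intronless E1 alpha copy known from testis, was at 1.38 CPM in WT 1 and 5.44, 7.95 and 4.82 CPM in the KO libraries (edgeR adjusted p = 0.116), all above WT 1. Lipt2, a lipoyl transferase gene needed to lipoylate the complex, was at 17.2 CPM and 34.6, 47.7 and 62.6 CPM (adjusted p = 0.135), also all above. With DESeq2 both passed, at adjusted p of 0.0189 and 0.0169, and with limma-voom neither did (0.127 and 0.109).

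Of 18 tricarboxylic acid cycle genes 17 were tested and 0 passed in edgeR, with 0 at an unadjusted p under 0.05, 0 by DESeq2 and 0 by limma-voom. Their median log2 fold change was 0.27, and 13 values lay above 0, against 9129 of all 17799 genes tested. Sdhd, a membrane anchor gene of succinate dehydrogenase, was at 218 CPM in WT 1 against 270 ± 36.0 CPM in KO oocytes (SD, n = 3). Mdh2 (mitochondrial malate dehydrogenase) was at 177 and 236 ± 43.6 CPM, and Sdhc at 191 and 189 ± 28.2 CPM. The lowest p belonged to Sucla2, a succinyl-CoA ligase subunit gene, at 131 and 193 ± 19.1 CPM (edgeR adjusted p = 0.500), and Idh3g, an isocitrate dehydrogenase subunit gene, at 37.6 and 60.6 ± 20.7 CPM (adjusted p = 0.525). Of 9 pentose phosphate genes 8 were tested and 0 passed in edgeR. At an unadjusted edgeR p under 0.05 there was 1, against 13.3% of all genes tested, and the median log2 fold change was 0.14. Rpe, the ribulose-phosphate epimerase gene, was at 23.5 CPM in WT 1 and 43.8, 82.8 and 76.0 CPM in the KO libraries (edgeR adjusted p = 0.136), Taldo1 (transaldolase) at 132 and 137 ± 15.1 CPM, and Tkt (transketolase) at 16.04 and 11.5 ± 3.26 CPM. Rpe passed in 3 of the 12 other settings without WT 2.

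**Figure D5:**
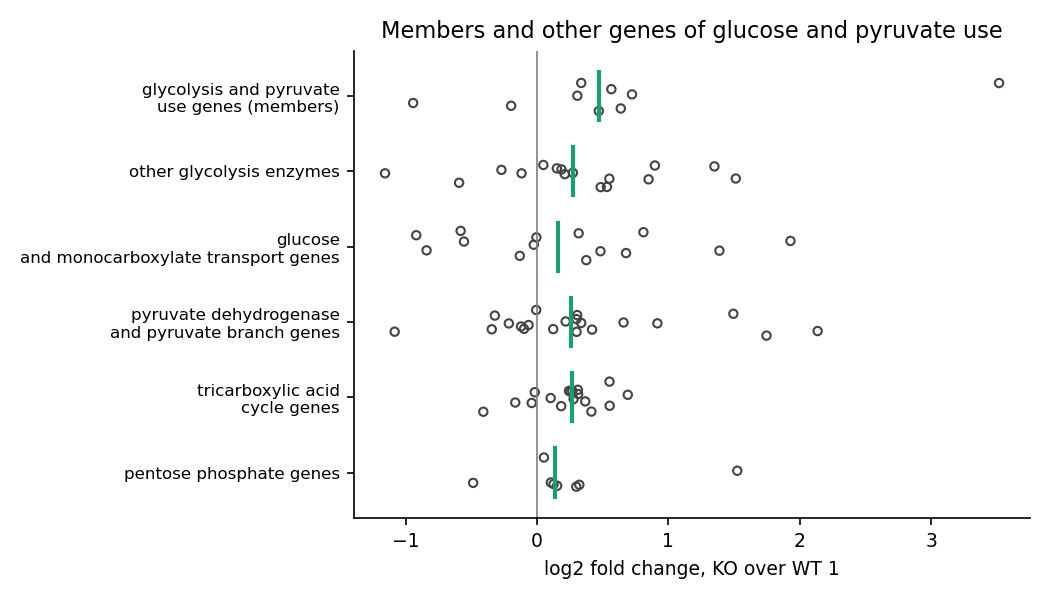
Fitted log2 fold changes, KO over WT 1, of the 9 members tested and of the tested genes of 5 further lists, 1 circle for each gene, with the median of each list as a green line. The single gene that passed, among the other glycolysis enzymes, is counted in its list's median but not plotted, and the medians lie between 0.14 and 0.47.

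Cumulus cells are rich in glycolytic transcripts, so markers of other ovarian cells were read beside these values. The 15 granulosa and cumulus markers together took 0.00651% of counts in WT 1 and 0.00972%, 0.00976% and 0.00849% in KO 1 to KO 3 in turn, higher in every KO library. Of the listed markers of expanded cumulus, Tnfaip6 and Ptx3 had 0 counts in all 4 libraries. Has2 had 4 counts in KO 2 and 0 in the others. Ptgs2 had 2 counts in WT 1 and 15, 36 and 18 counts in the KO libraries, all higher. Most of the granulosa and cumulus total came from Cyp19a1 (13.9 CPM in WT 1 and 35.1, 46.1 and 35.3 CPM in the KO libraries) and Nr5a2 (42.4 CPM in WT 1 and 36.8 to 47.1 CPM). The blood markers took at most 4.86e-05% in any of the 4 libraries, with the hemoglobin genes Hba-a1, Hba-a2, Hbb-bs and Hbb-bt at 0 counts, and the 8 theca, stroma and endothelium markers took 0.00159% in WT 1 against 0.00267 ± 4.18e-05% in KO oocytes (SD, n = 3). Nearly all of the latter came from Pecam1, at 14.7 CPM in WT 1 and 24.7, 25.6 and 26.2 CPM in the KO libraries, while Col1a2, Col3a1 and Cdh5 had 0 counts. The part of such cells in the members' values was not tested.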

How the data were processed

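The authors' deposited table holds raw counts per gene symbol with exon coordinates and exon length, in 5 library columns matched to samples by name, per the file headers. The submitters' processing notes name Trim Galore 0.6.7, STAR 2.7.10a, featureCounts 2.0.2, DESeq2 (no version) and the build mm10. The sources used here do not give the annotation release, strand setting or treatment of multiply mapped reads. cDNA was primed with oligo(dT), per the labels' protocols, so counts can depend on tail length as well as on mRNA number.

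WT 1 was compared with 3 KO libraries over all genes by the robust quasi-likelihood test of edgeR 4.0.16 in R 4.3.3, after filterByExpr and TMM scaling, and p-values were adjusted by Benjamini-Hochberg with a threshold of 0.05. The SE was derived from the F statistic. CPM are counts over the library total times its TMM factor. Alternatives used DESeq2 1.42.0, limma-voom 3.58.1, other scalings, filters, thinning, WT 2 added with and without a replicate block, and each KO library left out. The fits were run on simulated data in which WT 1 varied like the KO libraries and changes were placed only in genes of at least 5 CPM. That simulation cannot check whether the real WT 1 varies like the KO libraries. Sequences came from RefSeq (GRCm38.p6 promoters, all 10 members matched) and GENCODE M21, whose coordinates were identical for the 10 members and Pan2; alignments used Biopython 1.88, and other steps Python 3.11.15 with pandas 2.3.3, SciPy 1.17.1 and matplotlib 3.10.9. A list gene that the rule names is not reported here. Named genes were the members, Pan2 and, per list, those that passed, the 3 with the highest level per kb and, where none passed, the 2 with the lowest p. Members and lists were chosen with earlier results of these data known.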

Additional observations from a re-analysis of the deposited data

Results flagged for a closer look

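WT 2, the library left out of the comparison, held more CPM in the exons of some of the 10 genes than all other libraries. Its counts followed the gene models on the first 90 Mb of chromosome 16, where log2 CPM correlated with the other 4 libraries at 0.909 to 0.923 over 523 genes with at least 10 counts summed over those 4, against 0.177 to 0.186 over 19564 genes at all other positions. None of the 10 genes is on chromosome 16, so the values below are counts at those coordinates and not levels of the genes. By library size, Hk1 coordinates held 13.7 CPM in WT 2 (52 counts), against at most 0.332 CPM in the other 4. Those of Pfkp held 79.8 CPM (302 counts), against at most 19.3 CPM, and those of Ldha 16.1 CPM (61 counts), against at most 0.665 CPM. In the same library Ldhb, Mpc1, Mpc2 and Pdha1 had 0 counts and Pkm 13. The source of the counts of WT 2 was not tested.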

How the results depend on the processing

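Settings without WT 2 numbered 12 for most members (10 for Ldha, 13 for Ldhb), and in all of them each of the 9 members tested kept the direction of its log2 fold change. Without KO 1 the count of genes that passed rose from 344 to 4923, and leaving out KO libraries in turn gave 425 to 4923 genes in all, 0 to 5 members, 1 to 7 other glycolysis genes, 0 to 2 transport genes, 0 to 7 pyruvate branch genes, 0 to 6 cycle genes and 0 to 3 pentose phosphate genes. No filter on low counts gave 868 genes, with 1 transport, 2 pyruvate branch and 1 pentose phosphate genes. DESeq2 gave 672 genes (519 higher, 153 lower), with 1, 2 and 1 in those lists. A mean of at least 5 CPM gave 126 genes and 0 other glycolysis genes, fewer genes being tested. Thinning gave 0 other glycolysis genes and 1 pyruvate branch gene, and limma-voom 0 other glycolysis genes. With WT 2 added, 0 genes passed in edgeR (1050 at an unadjusted p under 0.05), with 0 other glycolysis genes. The replicate block was fitted with WT 2 added, since WT 1 alone shares 1 number with KO. It also gave 0 genes and 0 other glycolysis genes (1 at an unadjusted p under 0.05); the samples share only a number, and the pairing could not be checked on WT 2.

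Log2 fold changes that reversed with WT 2 added were those of Ldha (-3.59), Mpc2 (0.80), Bsg (0.46), Slc16a13 (0.34), Pdhx (0.90), Sdhc (0.99), Sucla2 (-0.25) and Tkt (0.51), and with the replicate block as well Ldha (-0.76), Mpc2 (4.74), Bsg (0.44), Slc16a13 (1.11), Pdhx (5.87), Sdhc (5.47), Sucla2 (-0.13), Tkt (3.25) and Ldhb-ps (1.505). Values close to 0 reversed without one KO library: leaving out each in turn gave -0.14 to 0.15 for Bsg, -0.090 to 0.14 for Slc2a1, -0.23 to 0.063 for Pdhx and -0.14 to 0.089 for Sdhc, all highest without KO 1, and for Taldo1 a lowest value of -0.024 without KO 2. They also reversed for Slc2a1 without a filter (0.0077), without mitochondrial and ribosomal RNA genes (0.0028) and with DESeq2 (3.96e-05). The cause of these changes was not tested.

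Counts not divided by length gave KO means of 1.33 for Pfkp to Pfkl, 1.36 for Pfkm to Pfkl, 0.968 for Pfkp to Pfkm, 10715 for Ldhb to Ldha and 2.29 for Mpc2 to Mpc1, and 5 members changed rank. With principal transcript lengths, chosen after seeing the data, they were 1.19, 1.77, 0.672, 14512 and 2.14, and 5 members changed rank. The KO means without each KO library ran from 0.585 to 0.739 for Pfkp to Pfkl. Leaving out WT 1 was not run, since only WT 2 would remain. Ldhb-ps did not pass with WT 2 added (log2 fold change -2.73). Depth limits Hk1 and Ldha most, at 1 to 12 counts a library.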
